A study of Glycine max with 2 samples.

Results

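The lipoxygenase tandem arrays of soybean chromosomes 13 and 15 were examined in young shoot tips of 2 soybean lines, Clark standard (CS) and the isoline Clark glabrous (CG). The members were chosen by identifier. They are Glyma13g42310, Glyma13g42320, Glyma13g42330 and Glyma13g42340 on chromosome 13, and Glyma15g03030, Glyma15g03040 and Glyma15g03050 on chromosome 15. These 7 loci carry 10 of the 78773 gene models in the RNA-Seq tables, and 7 of the 69145 loci.

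CS is the wild type line with trichomes. CG is the hairless isoline that carries the dominant P1 allele, introgressed into Clark by repeated backcrossing. Both lines were grown in a greenhouse under optimal conditions for 4 weeks, and RNA from the shoot tips of multiple plants was pooled into 1 library per line. The tag libraries of the study, made from separate samples of both lines, were not analysed here. A difference between the lines therefore has no replicate check in the tables used, no p-value is given, and a difference caused by P1 cannot be told apart from one caused by other retained donor sequence or by the handling of either pool.

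Lipoxygenases add molecular oxygen to polyunsaturated fatty acids such as linoleic and linolenic acid. The hydroperoxides that they form feed several branches: allene oxide synthase and allene oxide cyclase lead to jasmonates, the hormones of wounding and defense, and hydroperoxide lyase leads to the volatile aldehydes of cut leaves. Soybean is known for abundant seed lipoxygenases, which give rise to beany flavor, and for a separate group of vegetative lipoxygenases in leaves, some of which behave as storage proteins.

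The deposited tables hold identifiers without gene names, and 0 of the 59048 rows of the RefSeq gene table (Glycine max v4.0) hold a Glyma identifier. That table lists the lipoxygenase symbols LOX2, LOX1.1, LOXB1 and LOX7 on chromosome 13, and LOX3 and VLXB on chromosome 15. None of these symbols was assigned to a member. That the members are lipoxygenases was taken as given, since no sequence of the models was used here.

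The sequences of this family at hand are short tags from the separate tag library of the study, which read 16 bases near the 3′ end of a transcript. They are shown as the lipoxygenase sequence at hand, and whether different tags come from different transcripts was not tested. In the table of abundant tags read here, 5 are annotated as lipoxygenase without a Glyma model beside them, so no tag was given to a member. The tag annotated as allene oxide cyclase is paired with Glyma19g05980, which is described further on. All letters are 5′ to 3′, and none is in capitals because no part was singled out.
DGE0000008, annotated lipoxygenase-9: tatgaatgtcaaatca
DGE0000035, annotated lipoxygenase: gaagagaaagcaataa
DGE0000109, annotated lipoxygenase: ggtttgcaagtaataa
DGE0000140, annotated lipoxygenase L-4: gcttcagcccttcatg
DGE0000255, annotated lipoxygenase L-1: gaggactatccttatg
DGE0002531, annotated allene oxide cyclase: ttgtgaattttttagt
Among the 10 pairs of lipoxygenase tags, the number of positions that differ ranged from 6 to 15 of the 16. The counts of these tags were not used.

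The members fell into an abundant and a scarce group, and the abundant ones were about 4-fold higher in CG. Values are RPKM, here numbers of alignments divided by model length and by the total alignments of the library. A read that aligned to several models counts on each, so levels of members with shared sequence are not fully separate. Glyma13g42330, Glyma13g42340, Glyma15g03040 and Glyma15g03050 had 82.2 to 169.5 RPKM in CS and 366 to 608 RPKM in CG. Glyma13g42310, Glyma13g42320 and Glyma15g03030 stayed at or below 0.358 RPKM in CS and 1.63 RPKM in CG. The lowest abundant model was 229-fold above the highest scarce one in CS and 225-fold above it in CG. Each array holds both kinds, with the scarce loci at its low-numbered end.

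Differences between the lines are given as log2 CS/CG ratios after adding a pseudocount of 0.1 RPKM, so a negative ratio is higher in CG. The ratio was read as a call at 2-fold or more, and only where the mean of both libraries reached 1 RPKM. Of the 10 member models, 6 passed that filter, from 4 loci, and all 6 were at least 2-fold higher in CG. For comparison, 13.9% of the 43753 models that passed the filter had a 2-fold difference toward CG, and 5.57% had one toward CS. After the CG values were rescaled to bring the median ratio to 0 (median-centring), these shares were 8.37% and 9.34%, and the 6 member models still passed. The 6 member models had a median log2 ratio of -2.22, against -0.34 for all tested models. All 6 had a mean of 200 RPKM or more. The 350 models at that level had a median of 0.63, with 13.7% at least 2-fold higher in CG and 28.9% in CS. The 6 member models are not independent, since 3 of them belong to Glyma15g03040. Without any filter or fold limit, all 10 member models were higher in CG, as were 59.9% of the 78773 models. For Glyma13g42310 and Glyma13g42320 the counting intervals include equal levels.

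**Figure D1:**
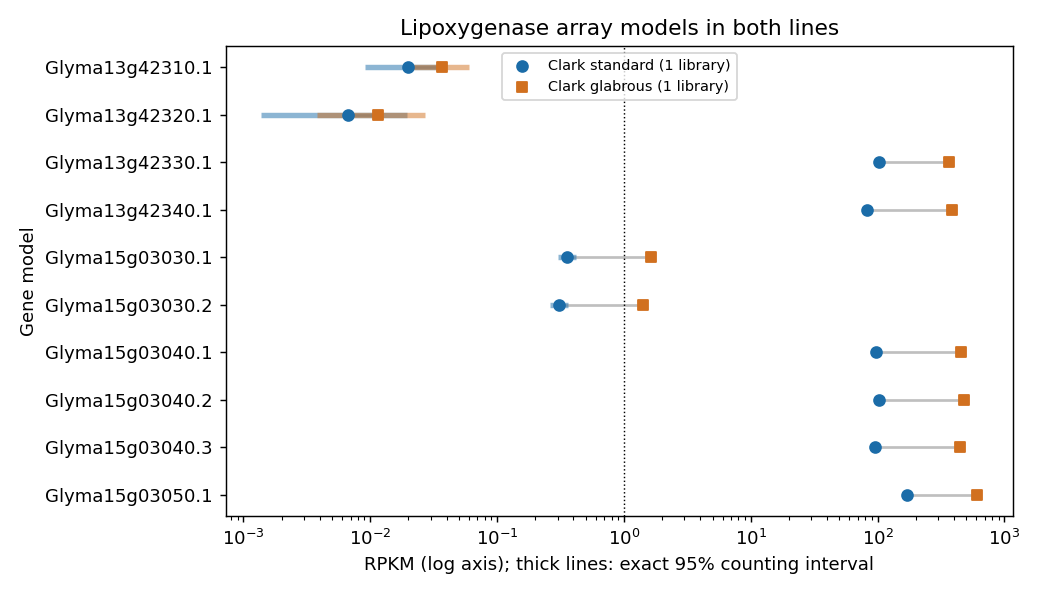
RPKM of the 10 member models in CS (circles) and CG (squares), 1 library each, on a log axis. Thick lines are exact 95% intervals from numbers of alignments (counting error only), and the dotted line marks 1 RPKM. The abundant models lie between 82.2 and 169.5 RPKM in CS and between 366 and 608 RPKM in CG, and the scarce models lie at or below 1.63 RPKM.

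Glyma15g03050 was the most abundant member in both lines. It had 169.5 RPKM in CS and 608 RPKM in CG, a 3.59-fold difference and a log2 CS/CG ratio of -1.84. By RPKM it had rank 464 among all models in CS and rank 48 in CG. The values rest on at least 80684 alignments in CS and 279067 in CG, which give an exact 95% interval of 3.56-fold to 3.62-fold. The alignments given are minimal whole numbers from which both RPKM values follow, and a read that aligned to several copies is in more than 1 of them. The intervals cover counting error in these libraries only.

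Glyma15g03040 is the neighbor of Glyma15g03050 by number and has 3 models. Its first model had 96.7 RPKM in CS and 452 RPKM in CG, a 4.67-fold difference with an interval of 4.63-fold to 4.72-fold. The second model had 103 RPKM in CS and 479 RPKM in CG. The third model had 96.2 RPKM in CS and 449 RPKM in CG. All 3 models had a log2 CS/CG ratio of -2.22. The same reads can count on each model of a locus, so these are not 3 separate results.

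Glyma13g42340 had 82.2 RPKM in CS, the lowest of the abundant loci in that line, and 384 RPKM in CG. The difference was 4.67-fold (interval 4.62-fold to 4.72-fold), a log2 CS/CG ratio of -2.22. Glyma13g42330 had 103 RPKM in CS and 366 RPKM in CG, a 3.57-fold difference (interval 3.53-fold to 3.60-fold) and a log2 ratio of -1.83. The order of these 2 loci was thus opposite in the lines, with Glyma13g42330 ahead in CS and Glyma13g42340 ahead in CG.

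By closeness of their ratios, the abundant loci were set in 2 pairs across the chromosomes after the values were seen. Glyma13g42330 was 0.606 of Glyma15g03050 in CS and 0.602 of it in CG, and their log2 ratios differed by 0.01. Glyma13g42340 was 0.850 of Glyma15g03040 in CS and 0.849 of it in CG. Between the pairs, the log2 ratios differed by 0.38 to 0.39, which is beyond the counting intervals. Whether that exceeds the spread between plants could not be judged with 1 library per line. The authors' alignment allowed up to 25 alignments per read, and the reads that members of a pair share could not be separated here.

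The make-up of the abundant lipoxygenase RNA moved little beside the change in its level. Summed over the first models of the 4 loci, there were 451 RPKM in CS and 1810.1 RPKM in CG, a 4.01-fold difference. Glyma15g03050 held 37.6% of that sum in CS and 33.6% in CG. Glyma13g42330 held 22.8% in CS and 20.2% in CG. The shares of the other pair were higher in CG, with 21.4% in CS and 24.97% in CG for Glyma15g03040, and 18.2% in CS and 21.2% in CG for Glyma13g42340. No share moved by more than 3.98 percentage points. A read that aligned to several of these loci counts on each, so the shares are not fully separate.

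**Figure D2:**
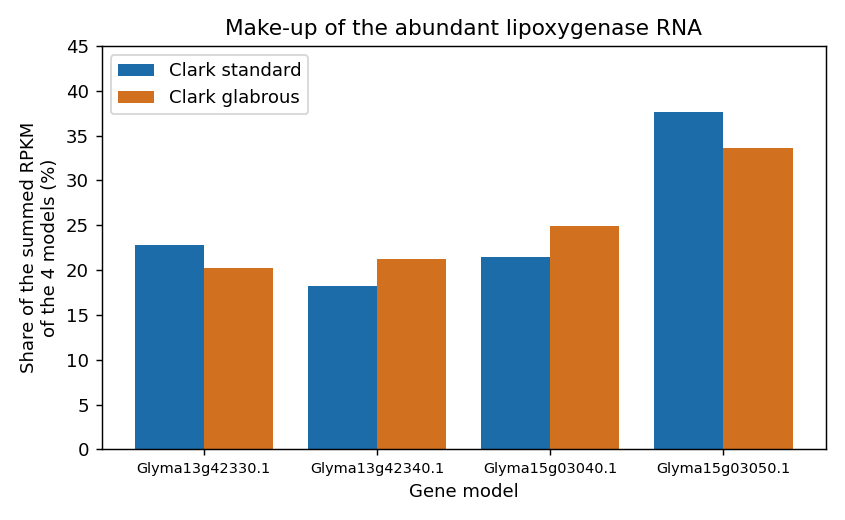
Share (%) of the summed RPKM of the 4 abundant loci that each first model held in CS (left bars) and CG (right bars), 1 library per line and no error bars. Glyma15g03050 has the tallest bar in both lines, at 37.6% and 33.6%.

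Both arrays differed between the lines by a similar factor. The chromosome 13 array summed to 185 RPKM in CS and 749.9 RPKM in CG over its 4 first models, 4.06-fold. The chromosome 15 array summed to 267 RPKM in CS and 1062 RPKM in CG over its 3 first models, 3.98-fold. Together the 7 loci took 0.142% of all alignments in CS and 0.566% in CG. A read that aligned to copies in both arrays would count in both sums, so these factors may not be separate results. Bulk RNA cannot tell a larger share of cells that express these loci from more RNA per cell.

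Among the scarce members, Glyma15g03030 came nearest to the filter. Its first model had 0.358 RPKM in CS and 1.63 RPKM in CG, with a mean of 0.993 RPKM, just under the limit of 1. Its second model had 0.309 RPKM in CS and 1.40 RPKM in CG. The smallest numbers of alignments were the same for both models, 155 in CS and 678 in CG, on lengths of 2830 and 3280 bases. The CG value was 4.54-fold the CS value, with an interval of 3.81-fold to 5.44-fold. The direction was that of the abundant loci of the array, at a far lower level. That interval includes the 4.67-fold of Glyma15g03040, whose first model had at least 44035 alignments in CS and 198415 in CG. The interval lies above the 3.59-fold of Glyma15g03050, which had at least 80684 alignments in CS and 279067 in CG. Reads shared with the abundant copies could not be separated, so whether Glyma15g03030 itself differed was not tested.

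Glyma13g42310 and Glyma13g42320 were close to undetected in both lines. Glyma13g42310 had 0.0199 RPKM in CS and 0.0367 RPKM in CG, from 9 and 16 alignments. Glyma13g42320 had 0.00671 RPKM in CS and 0.0116 RPKM in CG, from 3 and 5 alignments. The intervals of both ratios include equal levels, from 0.767-fold to 4.74-fold for Glyma13g42310 and from 0.336-fold to 11.1-fold for Glyma13g42320, so a difference was not detectable at this depth. If these smallest numbers are the true ones, at most 9 and 3 alignments in CS can have come to these loci from reads of the abundant copies, of which Glyma13g42330 alone had 53160.

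Most of the expressed loci next to the arrays by number were within 2-fold between the lines. Within 100 numbers of either array the tables hold 40 other loci, of which 23 had a first model with a mean RPKM of 1 or more. Of these, 3 differed by 2-fold or more toward CG, 1 did so toward CS and 19 were within 2-fold. Their median log2 CS/CG ratio was -0.63 beside the chromosome 13 array and -0.46 beside the chromosome 15 array. Over whole chromosomes, 14.4% of tested models on chromosome 13 and 14% on chromosome 15 were at least 2-fold higher in CG, close to the 13.9% of all tested models.

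On chromosome 13, Glyma13g42290 was listed at 0 in both lines. Glyma13g42300, just before the array, had 5.42 RPKM in CS and 5.74 RPKM in CG. Just after the array, Glyma13g42350 had 0.111 RPKM in CS and 1.19 RPKM in CG, a log2 ratio of -2.61 at a mean below the filter. The next locus, Glyma13g42360, had 20.5 RPKM in CS and 24.5 RPKM in CG. Of these 4 adjoining loci, the scarce Glyma13g42350 was the one with a ratio beyond 2-fold.

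On chromosome 15, the loci just before the array were within 2-fold. Glyma15g03010 had 1.61 RPKM in CS and 2.24 RPKM in CG, and Glyma15g03020 had 22.3 RPKM in CS and 26.2 RPKM in CG. After the array, Glyma15g03060 was listed at 0 in both lines and Glyma15g03070 had 4.35 RPKM in both. Glyma15g03080, named here after its values were seen, had 156 RPKM in CS and 50.6 RPKM in CG. This abundant neighbor thus differed in the opposite direction from the lipoxygenases.

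**Figure D3:**
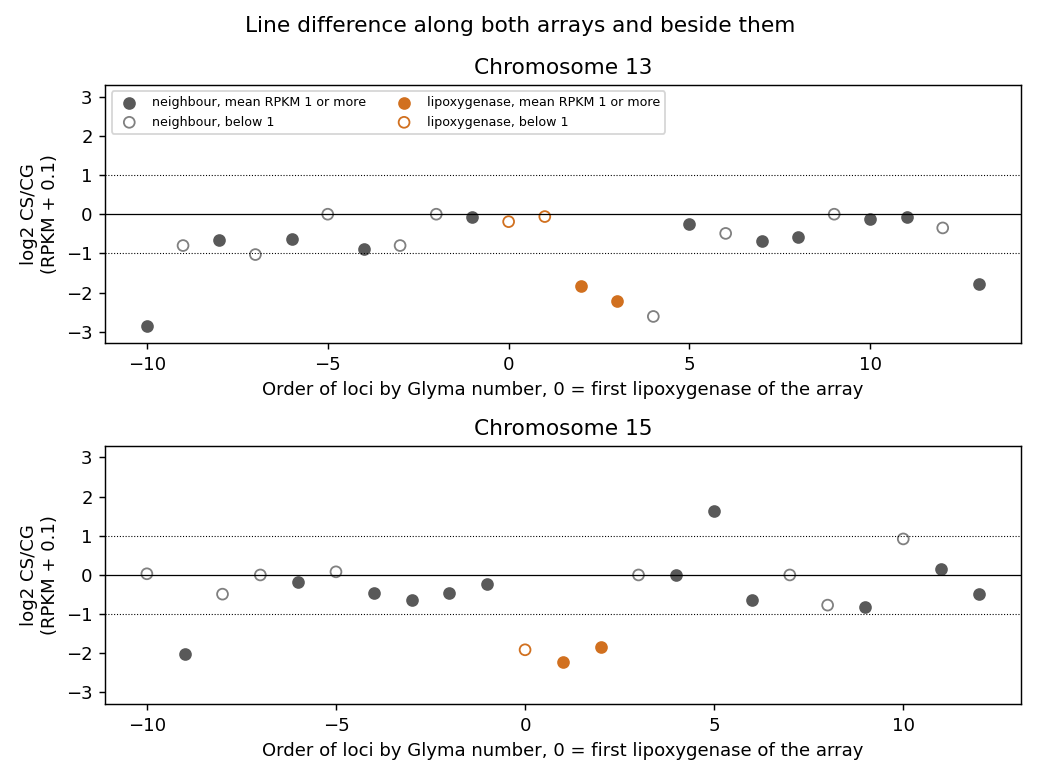
Log2 CS/CG ratio (RPKM + 0.1) of the first model of each locus in order of Glyma number, for chromosome 13 (top) and chromosome 15 (bottom), with lipoxygenases in orange, neighbors in gray, open symbols for means below 1 RPKM and dotted lines at 2-fold. The 4 abundant lipoxygenases lie between -2.22 and -1.83, and 19 of the 23 filled gray points lie within 2-fold.

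For the pathway around lipoxygenase, gene names were at hand only for loci that the study annotates in its table of tags that differed between the lines. That table gave 1 locus for jasmonate synthesis, 2 for jasmonate response, and 0 for other lipoxygenases or for the hydroperoxide lyase branch. The loci were chosen there for a difference in tags of the same lines, from separate samples, and are listed among the tags higher in CS. For Glyma15g19840 the tag is marked as antisense to the model. In the RNA-Seq libraries the direction was opposite to that listing for all 3 loci. All 8 models of these 3 loci were at least 2-fold higher in CG, against 13.9% of all tested models. The 8 models are not independent, since 7 of them belong to the 2 jasmonate response loci.

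Glyma19g05980, annotated as allene oxide cyclase, the enzyme that closes the ring of the jasmonate precursor, had 8.01 RPKM in CS and 104 RPKM in CG. This was a 12.98-fold difference, a log2 CS/CG ratio of -3.68. The next gene group, jasmonate ZIM-domain proteins, are repressors of jasmonate signaling whose genes are themselves induced by jasmonate in Arabidopsis. The first model of Glyma09g08290 had 7.69 RPKM in CS and 199 RPKM in CG, 25.9-fold. The first model of Glyma15g19840 had 10.3 RPKM in CS and 207 RPKM in CG, 19.98-fold. The 7 models of these 2 loci had log2 ratios from -4.68 to -4.29. All 3 loci lay below the abundant lipoxygenases in CS and in CG, and their ratios were farther from 0. Their listing by tags had the opposite direction, so the higher level in CG was not seen in both kinds of sample.

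**Figure D4:**
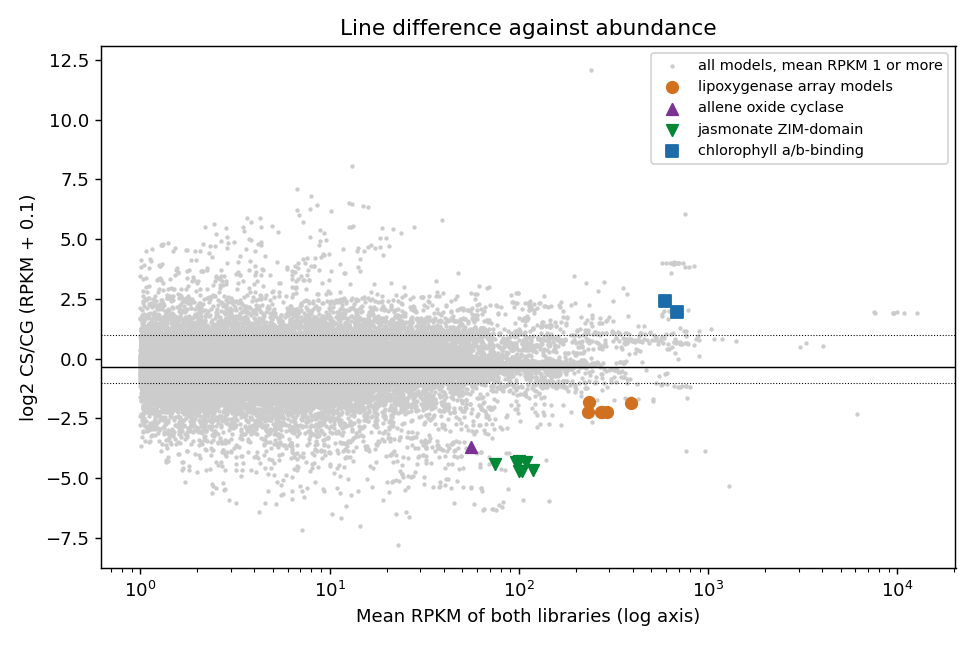
Log2 CS/CG ratio (RPKM + 0.1) against mean RPKM (log axis) for the 43753 models with a mean of 1 or more (gray), with the lipoxygenase models, allene oxide cyclase, jasmonate ZIM-domain models and chlorophyll a/b-binding models marked. The solid line is the median of -0.34, the lipoxygenases lie at -2.22 to -1.83, and the jasmonate ZIM-domain models lie at -4.68 to -4.29.

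The annotated markers of green tissue differed in the opposite direction from the lipoxygenases. Both loci annotated as chlorophyll a/b-binding proteins, the light-harvesting antenna of photosynthesis, were at least 2-fold higher in CS. So were 5.57% of all tested models, and 28.9% of the 350 models with a mean of 200 RPKM or more, as these 2 loci had. Glyma16g27990 had 990.3 RPKM in CS and 189 RPKM in CG, and Glyma16g28030 had 1093 RPKM in CS and 281 RPKM in CG. The seed list matched 1 locus by name, Glyma08g45540, annotated as Kunitz trypsin inhibitor KTi2. It had 78.1 RPKM in CS and 52.5 RPKM in CG, and whether it is particular to seed was not tested. For shoot meristem, root and nodule 0 loci were annotated, so the tissue label was checked for green tissue only. These marker loci also come from the list of tags higher in CS. The loci for green tissue were thus picked in that direction and do not stand for all such loci. The part of tissue make-up in the lipoxygenase difference was not tested.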

How the data were processed

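RNA-Seq of shoot tips was available as 1 library per line. The authors mapped 75-base reads with Bowtie (version not given in the sources used here) to the Glyma cDNA models of Williams 82, with up to 3 mismatches and up to 25 alignments per read, and deposited RPKM values. RPKM values are not counts, and no count test or p-value was computed.

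RPKM steps gave totals of 152791817 alignments in CS and 147273809 in CG, from models with equal alignments and from whole model lengths. The paper reports more aligned reads for CG than for CS, so the order of the libraries differs between reads and alignments. Ratios scaled to aligned reads were not computed. Whole alignments (within 0.002 or a relative rounding error) were found for all 10 member models. Intervals are exact at 95%, Clopper-Pearson for ratios. A count of 0 allows 3 alignments, 0.0196 RPKM in CS and 0.0204 RPKM in CG on 1000 bases. Log2 ratios used a pseudocount of 0.1 RPKM, which understates changes of low models, and calls required a mean RPKM of 1 and 2-fold. Alternatives were pseudocounts, filters, first models, median-centring (CG multiplied by 0.788) and a common 75th percentile.

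The members and lists were chosen with earlier results of these data known. All members were named, with the 2 nearest loci on each side of an array, and annotated pathway or marker loci with at most 5 per list. Gene lists by RefSeq name could not be made. Computations were tested on simulated data. The software was matplotlib 3.10.9, SciPy 1.17.1, pandas 2.3.3 and NumPy 2.4.6 under Python 3.11.15.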

Additional observations from a re-analysis of the deposited data

How the results depend on the processing

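No paired analysis was possible because CS and CG have a single library apiece, which also leaves none to omit. The 6 member models at least 2-fold higher in CG were also 6 with pseudocounts of 1 and 0.01 RPKM and after median-centring. They were 6 as well with a common 75th percentile and with a filter at a mean of 10 RPKM. With the first model of each locus 4 of 4 passed, and without a filter 8 of 10. None of the member models was at least 2-fold higher in CS under any of these settings. The share of all models toward CG was 15.2% with first models, 11.2% without a filter and 12.7% at a mean of 10 RPKM. It was 9.37% with a pseudocount of 1 RPKM and 14.5% with 0.01 RPKM. The median log2 CS/CG ratio of the members, -2.22 as reported, was -1.87 after median-centring, -1.89 with a common 75th percentile, -2.03 with first models and -1.90 without a filter. The summed chromosome 13 array moved from -2.02 to -1.68 after median-centring and -1.69 with a common 75th percentile. The summed chromosome 15 array, -2.09 over all its models, was -1.75 after median-centring, -1.77 with a common 75th percentile and -1.99 with first models. For the 6 models that passed the filter, all 40 alternative ratios stayed at least 2-fold higher in CG, from -2.22 to -1.49. Glyma13g42310 and Glyma13g42320, counted without a filter, had ratios of -0.19 and -0.06. The share of all tested models with a 2-fold difference toward CG, 13.9% in the deposited scaling, was 8.37% after median-centring and 8.59% with a common 75th percentile, while the share toward CS, 5.57% in the deposited scaling, was 9.34% and 9.11%. Depth limits the ratios of Glyma13g42310 and Glyma13g42320 most. Reads shared between copies limit the separation of the abundant members and the reading of Glyma15g03030.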
